A study of Rattus norvegicus with 6 samples.

Results

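The 8 genes described here are those of the liver X receptors and of proteins that move sterols and phospholipids out of, or within, the cell: Nr1h2, Nr1h3, Abca1, Abcg1, Apoe, Pltp, Lpcat3 and Soat1. They were taken by symbol from the deposited gene table, and all 8 were found, each with 1 row among 21648 genes. The cells were wild-type neonatal rat ventricular myocytes, that is, heart muscle cells of pups at postnatal day 3. Before seeding, fibroblasts were allowed to attach to plastic for 90 min and left behind, and the plating medium held 10% serum and 100 µM bromodeoxyuridine. The control group received DMSO, the solvent, and the treated group received 10 µM of compound 915, named by the submitters as an ERR agonist, a compound that activates estrogen-related receptors. Treatment lasted 72 h and each group had 3 libraries of total RNA, called biological replicates, but nothing says that they came from separate cell preparations. The p-values therefore measure only the spread between these samples, some of which may be technical.

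Liver X receptors (LXRs) are nuclear receptors that bind oxysterols, oxidised forms of cholesterol, and act on DNA as heterodimers with retinoid X receptors. When sterols accumulate they switch on genes that export cholesterol to lipoprotein particles and that remodel membrane phospholipids. The opposite arm is run by the transcription factor SREBP-2, which switches on cholesterol synthesis and uptake when sterols are scarce. In the heart these genes are active in myocytes and also in resident macrophages and fibroblasts.

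With 915, 7 of the 8 genes were higher and 1 was not called. The cholesterol exporter gene Abcg1 rose 2.00-fold and the receptor gene Nr1h3 1.82-fold. Apoe, Abca1, Lpcat3 and Pltp rose by 1.24-fold to 1.30-fold, Nr1h2 rose 1.13-fold, and Soat1 did not pass the test. Calls came from edgeR's quasi-likelihood test at an adjusted p of 0.05 over all 14253 genes tested, of which 24.3% were called higher and 25.5% lower, 49.8% in all. All 8 genes passed the filter on low counts. The median log2 fold change of the 8 was 0.34, beside −0.01 for all genes tested. In 7 of the 8 every 915 library lay above every DMSO library, as it did in 23.9% of tested genes, while in 32.8% every 915 library lay below.

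**Figure D1:**
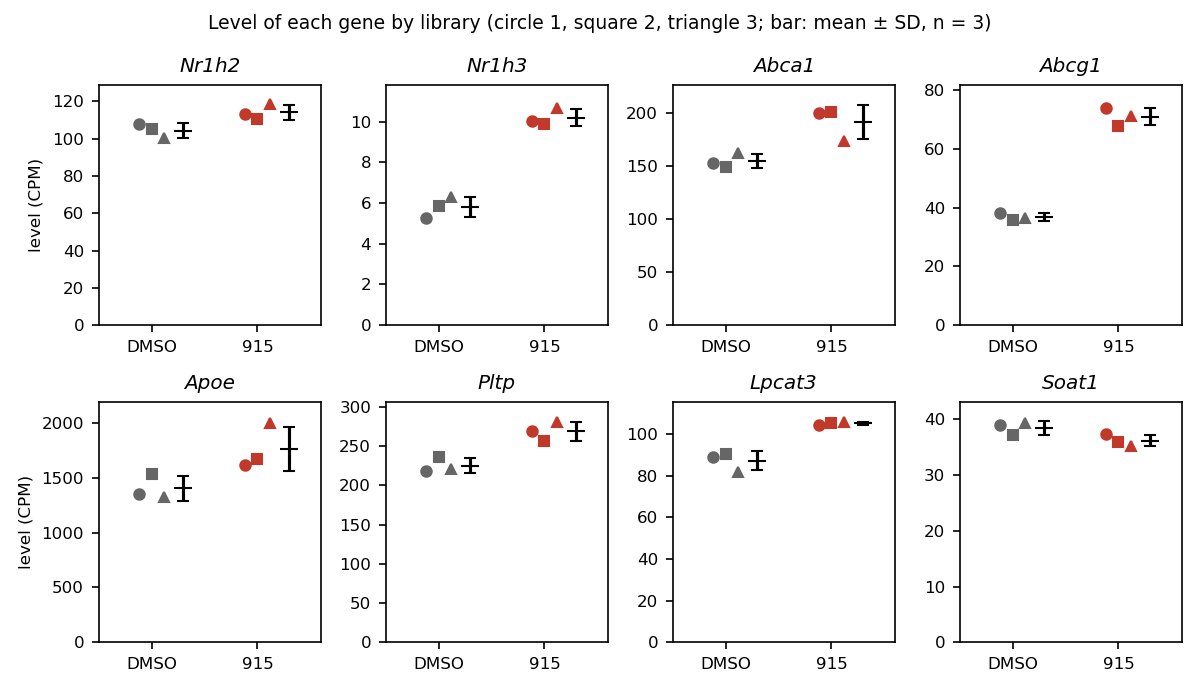
Level of each of the 8 genes in CPM (vertical axes from 0) in the 3 DMSO libraries (grey) and the 3 libraries given 915 (red), with the library number as the symbol and the mean ± SD beside them. The groups are apart in every panel except that of Soat1, and the gap, relative to the level, is widest in the panels of Nr1h3 and Abcg1.

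The libraries held 30639244 to 40010826 counts in the gene table, and the deposited CPM values (counts scaled to a common library total) use a slightly larger total per library. A count of 0 allows up to 3 counts, which at this depth came to between 0.0698 and 0.0917 CPM, and this covers counting error only. Even the scarcest of the 8 genes, Nr1h3, was far above it. Fold changes are relative to library totals scaled by TMM (factors of 1.01 to 1.03 with DMSO and 0.977 to 0.982 with 915), so they exceed the ratio of the mean CPM values a little. The labelled cell type was checked against its markers: all 10 cardiomyocyte markers in the table were expressed and all 10 were called higher with 915 (median log2 fold change 0.47), with a summed level of 19016 to 20016 CPM with DMSO and 26876 to 27300.2 CPM with 915. Fibroblast markers were also plentiful, with a summed level over 10 genes of 21221 to 22102 CPM with DMSO and 11234 to 11880.1 CPM with 915. Most of that sum came from the collagen genes Col1a1 and Col3a1. They were at 11988 ± 312 and 7067 ± 160 CPM with DMSO and at 6289 ± 276 and 2826 ± 90.8 CPM with 915. Among the 10 fibroblast markers 7 were called lower, 2 higher (Dcn among them) and 1 (Postn) was not called. In such bulk RNA, fewer cells of a type and less RNA per cell cannot be told apart. The table gives no transcript lengths, so levels are compared between libraries and not between genes.

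The genes of both receptors rose, Nr1h3 by 1.82-fold and Nr1h2 by 1.13-fold. Nr1h3 (ENSRNOG00000013172) encodes LXR alpha, known as the form of liver, fat and macrophages whose gene can itself be an LXR target. Its level was 5.28, 5.85 and 6.28 CPM in the controls (replicates 1 to 3) and 10.0, 9.87 and 10.7 CPM in 915 replicates 1 to 3. The highest DMSO library was thus well below the lowest 915 library, and these values rest on 227 to 248 and on 323 to 434 counts. The mean rose from 5.80 ± 0.499 to 10.2 ± 0.422 CPM (SD, n = 3 each), or by 0.86 ± 0.110 (SE) in log2 terms at an edgeR adjusted p of 1.56e-05. Only 2.8% of the tested genes had a higher log2 fold change.

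Nr1h2 (ENSRNOG00000019812) encodes LXR beta, the form found in most tissues. It was counted at 108, 105 and 100.2 CPM in the controls (replicates 1 to 3) and 113, 111 and 119 CPM in 915 replicates 1 to 3. The groups did not overlap, but the gap between the highest DMSO and the lowest 915 library was small. The mean went from 104 ± 3.86 to 114 ± 4.09 CPM, or by 0.18 ± 0.0509 (SE) in log2 terms at an edgeR adjusted p of 9.47e-03. This call was lost without DMSO library 3 (edgeR adjusted p = 0.0541) and when library totals were used without TMM (edgeR adjusted p = 0.0603).

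The log2 ratio of Nr1h3 to Nr1h2 was −4.33, −4.14 and −3.98 in the controls (replicates 1 to 3) and −3.48, −3.47 and −3.46 in 915 replicates 1 to 3. Its mean was thus 0.68 higher with 915, with no overlap between the groups. The exact two-sided permutation test gave p = 0.1, the smallest that 3 libraries against 3 allow, and 0.1 after Benjamini-Hochberg adjustment over the 3 ratios tested.

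Retinoid X receptors, the DNA-binding partners of LXRs, were higher as well. Rxrg, the form known from skeletal and heart muscle, rose 1.73-fold from 20.4 ± 1.76 to 34.2 ± 1.21 CPM (log2 change 0.79 ± 0.0756; edgeR adjusted p = 9.12e-07). Rxrb rose 1.31-fold from 46.2 ± 2.74 to 58.5 ± 4.94 CPM, and Rxra 1.14-fold from 55.3 ± 2.06 to 60.9 ± 2.07 CPM. Rxra was not called without DMSO library 3 (edgeR adjusted p = 0.0523) or without TMM (edgeR adjusted p = 0.0685). Of the 13 tested receptor partners and cofactors, 5 were higher, 2 lower and 6 not called, with a median log2 fold change of 0.05; without TMM 4 were higher and 4 lower. Subunits of a nuclear receptor corepressor complex moved apart: Tbl1x fell 1.13-fold, Tbl1xr1 rose 1.16-fold, and the histone deacetylase gene Hdac3 stood at 50.1 ± 2.79 and 49.2 ± 2.13 CPM without passing the test.

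**Figure D2:**
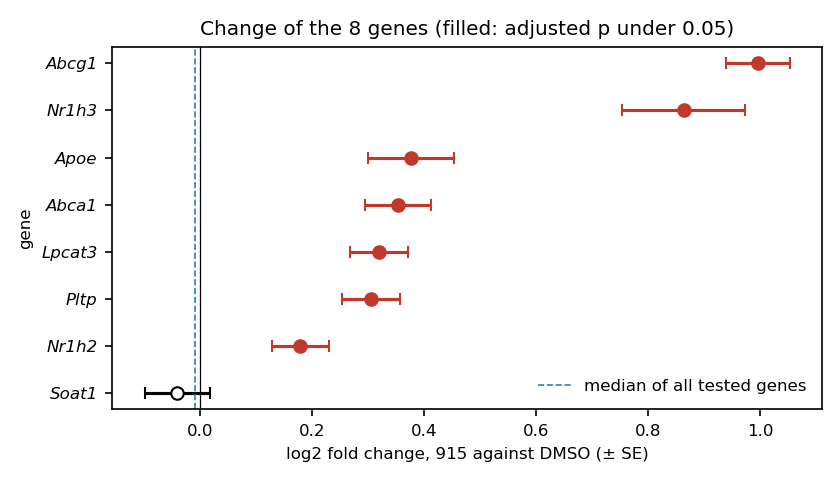
Log2 fold change of the 8 genes with 915 against DMSO (horizontal axis, points with standard errors), ordered by size, with the median of all tested genes as a dashed line. Abcg1 and Nr1h3 stand at 1.00 and 0.86, 5 genes lie between 0.18 and 0.38, and Soat1, the open point, lies at −0.04.

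The ATP-binding cassette exporters Abca1 and Abcg1 are the best known LXR targets, and both rose. Abcg1 (ENSRNOG00000001158), whose product passes cholesterol to mature high-density lipoprotein (HDL), was counted at 38.1, 35.7 and 36.5 CPM in the controls (replicates 1 to 3) and 73.7, 67.8 and 71.1 CPM in 915 replicates 1 to 3. Every library given 915 was far above every control. The mean rose from 36.8 ± 1.23 to 70.9 ± 2.95 CPM, or by 1.00 ± 0.0567 (SE) in log2 terms at an edgeR adjusted p of 4.29e-09. Among tested genes 1.93% had a higher log2 fold change.

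Abca1 (ENSRNOG00000018126) encodes the exporter that loads cholesterol and phospholipid onto lipid-poor apolipoproteins, the step that starts a new HDL particle. Its promoter is shown because it holds the single match, among the promoters listed for these genes, to the LXR element called a direct repeat, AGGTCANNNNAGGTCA. The window runs from 250 bases before to 50 bases after the start site in RefSeq's table for GRCr8 (chr5:72596424-72596723, minus strand, printed 5′ to 3′ along the gene), and the capitals mark the match.

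Abca1 promoter: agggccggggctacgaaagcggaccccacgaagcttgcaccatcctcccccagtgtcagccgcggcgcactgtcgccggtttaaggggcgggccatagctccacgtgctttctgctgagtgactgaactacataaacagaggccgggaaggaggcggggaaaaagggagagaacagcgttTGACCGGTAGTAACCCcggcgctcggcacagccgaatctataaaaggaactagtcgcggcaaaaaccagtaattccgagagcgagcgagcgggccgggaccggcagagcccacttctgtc

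The match lies 70 to 55 bases before the start site and reads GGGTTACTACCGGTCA on the opposite strand. It has 3 mismatches in the 12 fixed letters, the most the search allowed on either strand, and 21.9% of all 33469 promoter windows of this length in the table hold such a match. Promoters were listed for 7 of the 8 genes, in 9 windows. None was listed for Abcg1, so its promoter was not searched. The ERR element TCAAGGTCA was found in none of the 9 and in 0.433% of all windows. With 1 mismatch allowed, it was found for Apoe, as TCAAGGTCC on the opposite strand, and in 7.29% of all windows. The sterol regulatory element TCACNCCAC, present in 1.12% of all windows, was found in none. A match is a run of letters and not evidence of binding, and no match says only that these letters are not in these windows.

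Abca1 was counted at 153, 149.6 and 163 CPM in the controls (replicates 1 to 3) and 200.4, 201 and 174 CPM in 915 replicates 1 to 3. The groups were apart, with 915 library 3 the nearest to the controls. The mean rose from 155 ± 6.82 to 192 ± 15.8 CPM, or by 0.35 ± 0.0597 (SE) in log2 terms at an edgeR adjusted p of 2.13e-04, and 15.5% of tested genes had a higher one. The call held in each of the 11 alternatives run, with log2 fold changes from 0.30 to 0.42.

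The log2 ratio of Abca1 to Abcg1 was 2.01, 2.07 and 2.15 in the controls (replicates 1 to 3) and 1.44, 1.57 and 1.29 in 915 replicates 1 to 3. Its mean fell by 0.64, with no overlap between the groups (exact two-sided permutation p = 0.1, the smallest possible, and 0.1 after adjustment over the 3 ratios).

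**Figure D3:**
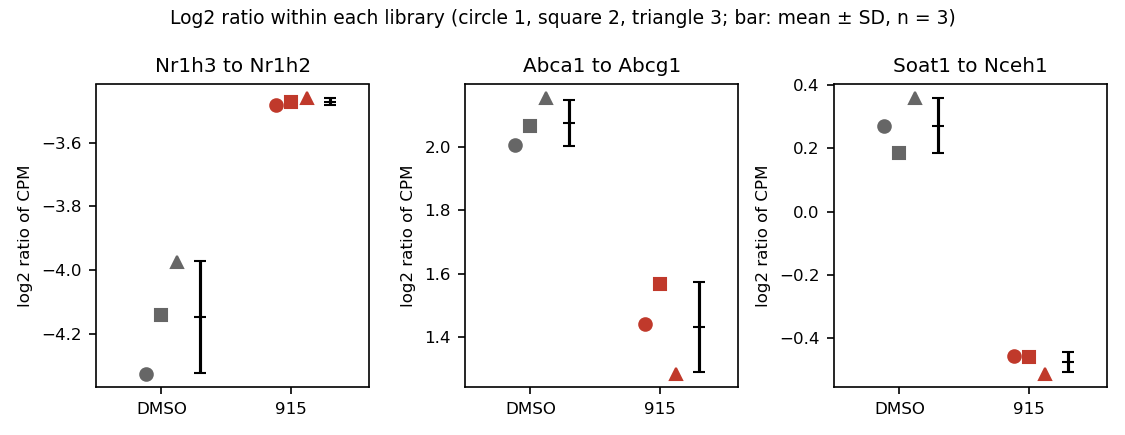
Log2 ratio of the CPM values of 3 gene pairs within each library (vertical axes; DMSO grey, 915 red; library number as symbol; mean ± SD beside them). In each pair the groups are apart: Nr1h3 gains on Nr1h2 by 0.68, while Abca1 loses 0.64 to Abcg1 and Soat1 loses 0.75 to Nceh1.

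Among other genes of efflux and of HDL, changes went in both directions: of 8 tested, 3 were higher, 3 lower and 2 not called, with a median log2 fold change of −0.12. Cd36, which encodes a scavenger receptor best known in heart for fatty acid uptake, rose 2.55-fold from 50.1 ± 2.15 to 124 ± 2.31 CPM. Abca2 and Abca5, transporters of the family of Abca1, rose 1.39-fold and 1.25-fold. Scarb1, which encodes the HDL receptor SR-BI, fell 1.51-fold from 46.8 ± 2.22 to 30.0 ± 1.01 CPM (log2 change −0.60 ± 0.0623; edgeR adjusted p = 2.29e-06). The other lower genes, Apoa1 and Lcat (Lcat named after its values were seen), were scarce, at 0.957 ± 0.0842 and 6.94 ± 0.395 CPM with DMSO and 0.523 ± 0.0499 and 5.13 ± 1.05 CPM with 915. Apoa1 lost its call in 9 of the 11 alternatives, among them DESeq2 (adjusted p = 0.0960), no filter on low counts (edgeR adjusted p = 0.0593) and leaving out any 1 library (edgeR adjusted p = 0.0554 to 0.108), and with the replicate block (edgeR adjusted p = 0.0688). The number called lower was 1 in DESeq2 and also when any DMSO library, 915 library 1 or 915 library 2 was left out.

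Apoe (ENSRNOG00000018454) encodes apolipoprotein E, which accepts cholesterol outside the cell and carries it to lipoprotein receptors. Its level was 1355, 1530.1 and 1322 CPM in the controls (replicates 1 to 3) and 1618, 1669 and 1993 CPM in 915 replicates 1 to 3. The groups did not overlap, but DMSO library 2 came close to the lowest 915 library and 915 library 3 stood above the others. The mean rose from 1402 ± 112 to 1759.7 ± 204 CPM, or by 0.38 ± 0.0766 (SE) in log2 terms at an edgeR adjusted p of 9.60e-04. Without 915 library 3 it was 0.28 (edgeR adjusted p = 3.84e-03), and without DMSO library 2 it was 0.45 (edgeR adjusted p = 2.23e-05). Of the 8 genes Apoe had the widest relative spread with 915, a coefficient of variation of 11.6%, where counting alone would give 0.39%.

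Apoe is also abundant in macrophages, fibroblasts and glia. In the same libraries 8 of 14 tested macrophage and leukocyte markers were lower and 6 were not called (median log2 fold change −1.06). The summed level of the 14 was 274 to 307 CPM with DMSO and 141 to 169.9 CPM with 915, and none of them was at 0 in all libraries. The macrophage receptor gene Csf1r fell 2.46-fold from 14.8 ± 0.377 to 5.84 ± 0.155 CPM and the lysozyme gene Lyz2 2.06-fold. Cd68, a lysosomal protein gene, did not pass at 47.9 ± 4.95 and 40.6 ± 5.04 CPM (edgeR adjusted p = 0.106). It was called lower without 915 library 3 (edgeR adjusted p = 0.0406) and without TMM (edgeR adjusted p = 0.0342). Of 10 fibroblast markers 7 were lower and 2 higher (median −0.54). Schwann cell and glial markers were lower in 5 of 6 cases, with summed levels of 35.5 to 38.3 CPM with DMSO and 22.8 to 24.4 CPM with 915. The part of these cells in the levels of Apoe and the other 7 genes was not tested.

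Pltp (ENSRNOG00000016488) encodes the phospholipid transfer protein, which moves phospholipid between lipoproteins and enlarges HDL. It was counted at 218, 236 and 221 CPM in the controls (replicates 1 to 3) and 269, 256 and 280.1 CPM in 915 replicates 1 to 3. All controls lay below all treated libraries. The mean rose from 225 ± 9.60 to 268 ± 11.8 CPM, or by 0.31 ± 0.0523 (SE) in log2 terms at an edgeR adjusted p of 2.37e-04.

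In the GRCr8 annotation Pltp overlaps Ctsa, the gene of a lysosomal carboxypeptidase, which rose from 451 ± 13.7 to 599 ± 13.2 CPM (log2 change 0.46 ± 0.0456; edgeR adjusted p = 1.37e-06). Nr1h3 overlaps the lysosomal phosphatase gene Acp2, which was at 44.0 ± 4.27 and 49.1 ± 2.04 CPM (0.20 ± 0.0692, edgeR adjusted p = 0.0244), and Lpcat3 overlaps Emg1, a ribosome biogenesis gene at 29.3 ± 0.802 and 29.6 ± 1.30 CPM (0.06 ± 0.0650, edgeR adjusted p = 0.470). Whether the counting used strand is not given in the sources used here. Reads from overlapping genes may therefore have been shared or lost, which was not tested. The other 5 genes overlapped no protein-coding gene there.

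Lpcat3 (ENSRNOG00000012269) encodes the enzyme that places polyunsaturated fatty acids into membrane phospholipids, the route by which LXRs are known to change membrane fluidity. It was counted at 89.0, 90.5 and 82.0 CPM in the controls (replicates 1 to 3) and 104, 105 and 106 CPM in 915 replicates 1 to 3. The 915 libraries were close together and all above the controls. The mean rose from 87.1 ± 4.55 to 105 ± 0.646 CPM, or by 0.32 ± 0.0523 (SE) in log2 terms at an edgeR adjusted p of 1.63e-04. Of the 4 other lysophospholipid acyltransferase genes tested, 2 were lower and 2 not called, and at an unadjusted p under 0.05 edgeR also found 0 higher. Lpcat4 and Mboat1 fell 1.57-fold and 2.20-fold, and Lpcat1, the lung surfactant enzyme gene, was at 19.4 ± 1.20 and 18.9 ± 0.811 CPM (log2 change 0.02 ± 0.0760).

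Soat1 (ENSRNOG00000004111) encodes the enzyme that turns free cholesterol into cholesteryl ester for storage, and it was not called. Its level was 38.9, 37.0 and 39.3 CPM in the controls (replicates 1 to 3) and 37.2, 35.9 and 35.2 CPM in 915 replicates 1 to 3. The groups overlapped, since DMSO library 2 was below 915 library 1. The means were 38.4 ± 1.23 and 36.1 ± 1.03 CPM, and the log2 fold change was −0.04 ± 0.0587 (edgeR adjusted p = 0.589). Over the alternatives it ran from −0.10 to −0.02, with adjusted p-values from 0.193 to 0.826.

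Among the enzymes of the reverse reaction is the cholesteryl ester hydrolase that Nceh1 encodes. Nceh1 rose 1.63-fold from 31.8 ± 0.997 to 50.2 ± 0.864 CPM (log2 change 0.71 ± 0.0576; edgeR adjusted p = 1.83e-07). Lipa and Lipe, also listed for ester turnover, were not called. Their log2 changes were 0.06 ± 0.0473 (edgeR adjusted p = 0.315) and −0.17 ± 0.0814 (edgeR adjusted p = 0.0894). A ratio of Soat1 to Nceh1 therefore does not stand for ester hydrolase genes as a group. The log2 ratio of Soat1 to Nceh1 was 0.27, 0.19 and 0.36 in the controls (replicates 1 to 3) and −0.46, −0.46 and −0.51 in 915 replicates 1 to 3, a mean difference of −0.75 (exact two-sided permutation p = 0.1, the smallest possible, and 0.1 after adjustment over the 3 ratios). Of 10 tested genes of sterol transport and ester turnover in the cell, 4 were higher, 1 lower and 5 not called (median 0.08); without TMM 2 were lower. Npc1, whose product takes cholesterol out of lysosomes, rose 1.21-fold, and the sterol carrier genes Stard3 and Osbp 1.24-fold and 1.16-fold. Stard4, a carrier gene that is itself controlled by SREBP-2, fell 2.24-fold from 23.5 ± 1.90 to 10.2 ± 1.25 CPM. The partner of Npc1 in the lysosome, Npc2, was at 328 ± 5.71 and 316 ± 15.3 CPM (edgeR adjusted p = 0.953).

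Genes that supply LXR ligands were divided. Cyp27a1, a mitochondrial hydroxylase gene whose product makes an oxysterol, was counted at 20.9, 20.5 and 21.1 CPM in the controls (replicates 1 to 3) and 37.5, 32.9 and 37.8 CPM in 915 replicates 1 to 3. It rose 1.79-fold (log2 change 0.84 ± 0.0708; edgeR adjusted p = 2.68e-07), with the groups far apart. Ch25h, another oxysterol-forming hydroxylase gene, was scarce and rose 2.16-fold from 0.830 ± 0.199 to 1.73 ± 0.302 CPM. Dhcr7, the gene of a late enzyme of cholesterol synthesis, fell 4.15-fold. Of the 7 tested genes 3 were higher, 2 lower and 2 not called, and the third higher gene, Hsd3b7 at 1.14-fold, lost its call without DMSO library 1 (edgeR adjusted p = 0.1001), without 915 library 2 (edgeR adjusted p = 0.0684) and without TMM (edgeR adjusted p = 0.0863).

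Among other genes known as LXR targets, 1 of the 12 tested was higher, 5 were lower and 6 were not called, with a median log2 fold change of −0.20. Mylip, whose product marks lipoprotein receptors for degradation, was at 34.0, 39.6 and 33.6 CPM in the controls (replicates 1 to 3) and 33.7, 35.2 and 34.8 CPM in 915 replicates 1 to 3, and the 915 values lay within the range of the controls (log2 change −1.01e-03 ± 0.0727; edgeR adjusted p = 0.992). Srebf1, the gene of the factor that drives fatty acid synthesis, stood at 93.5 ± 5.80 and 98.6 ± 5.68 CPM (0.13 ± 0.0584, edgeR adjusted p = 0.0895). The desaturase genes Scd and Scd2 fell 2.98-fold and 1.69-fold, and the fatty acid synthase gene Fasn fell 1.34-fold from 243 ± 7.18 to 175 ± 6.41 CPM. Apoc1, a neighbour of Apoe in the same apolipoprotein cluster, fell 1.34-fold from 12.1 ± 1.06 to 8.72 ± 0.834 CPM. The higher gene was the lipoprotein lipase gene Lpl, at 1.46-fold, and Mertk, a phagocytic receptor gene of macrophages (named after its values were seen), fell 1.25-fold.

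**Figure D4:**
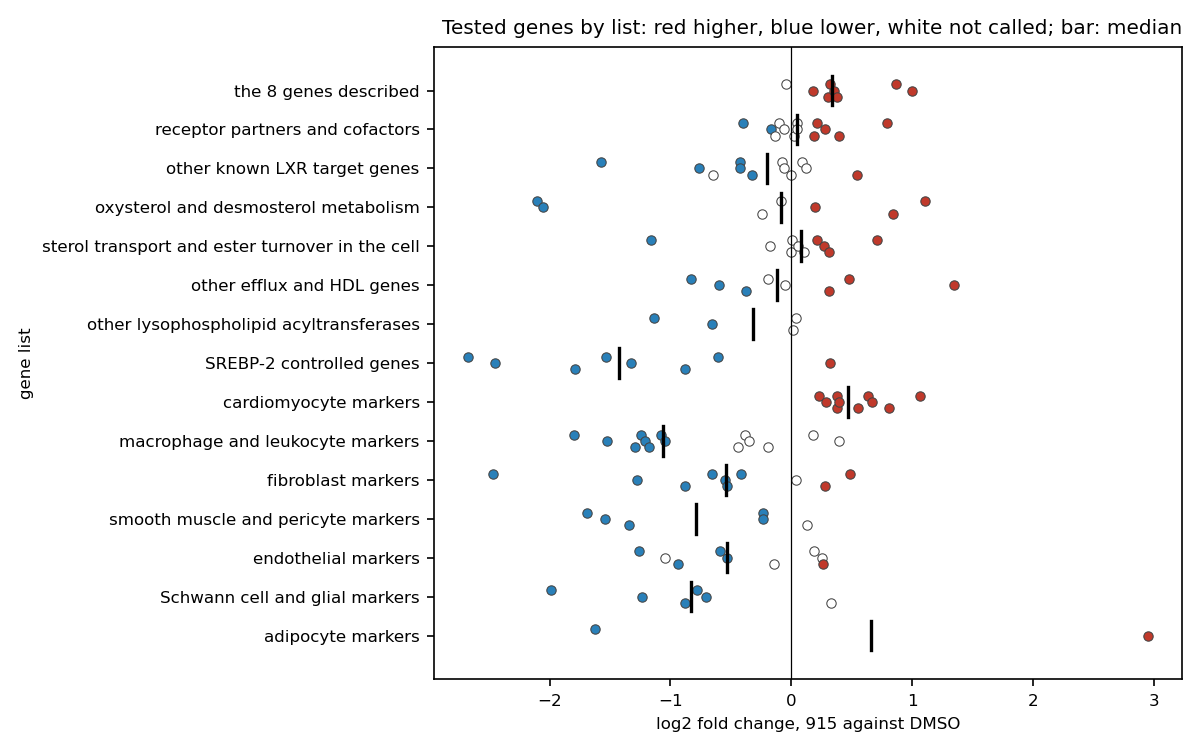
Log2 fold change with 915 against DMSO (horizontal axis) of every tested gene of each list (rows), with red for called higher, blue for called lower, white for not called and a bar at the median of the list. The 8 genes described here have a median of 0.34, the other LXR targets −0.20, the genes listed for SREBP-2 control −1.43 and the macrophage markers −1.06.

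Genes controlled by SREBP-2 were lower in 7 of 8 cases, with a median log2 fold change of −1.43. The cholesterol synthesis genes Hmgcs1 and Idi1 fell from 150.6 ± 6.08 to 42.2 ± 3.68 CPM and from 20.8 ± 1.41 to 3.67 ± 0.128 CPM, while Insig2, a sterol-sensing retention factor gene named after its values were seen, rose 1.25-fold.

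The profile over the 6 libraries that was most like that of Abca1 belonged to Rdh13, Ryr2, Opa1 and Tmem186, in that order. Their root mean square differences from Abca1, in log2 CPM centred on each gene's mean, were 0.0174 to 0.0301 over 9617 genes searched. These genes share with Abca1 a lower level in 915 library 3 than in 915 libraries 1 and 2: Ryr2, the cardiac calcium release channel gene, was at 659.9, 667 and 581 CPM there. For Nr1h3 the closest were Whamm, Tnfaip3, Map7 and Rbks, at 0.0418 to 0.0526. Tnfaip3, an inhibitor of NF-kB signalling, was at 7.21, 7.99 and 8.02 CPM in the controls (replicates 1 to 3) and 13.5, 12.4 and 14.1 CPM in 915 replicates 1 to 3. Likeness over 6 libraries in 2 groups rests mostly on the difference between the groups and is given as a description.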

How the data were processed

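RNA of 3 DMSO and 3 compound 915 cultures was sequenced. The tools STAR (2.5.1a) and Subread featureCounts (1.4.6-p5) and the rat build Rnor_6.0 are named in the submitters' processing notes. The authors deposited raw counts per gene and CPM values, which equal the counts over 1 total per library. Of 22641 rows, 993 repeated an Ensembl identifier with the same counts and were dropped. Fits used edgeR 4.0.16 in R 4.3.3 (filterByExpr, TMM, quasi-likelihood test on group, two-sided, Benjamini-Hochberg over all genes tested), and DESeq2 1.42.0 as an alternative. The edgeR fit was also run on simulated counts in which few genes changed and all had the same relative spread. That setting is unlike these data, so the run does not settle error rates here. A standard error is the log2 fold change over the square root of F. Ratios used CPM plus 0.1 and exact permutation tests in scipy 1.17.1.

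The members and lists were chosen with earlier results of these data known. There were 14 lists with 140 entries; of the 75 pathway entries 62 were tested, 17 higher and 22 lower. Other entries, such as Ncor1, Arl4c and Soat2, were not analysed here. Named were the 8 members, 17 genes regardless of value, in each list up to 5 called genes of smallest p and 2 uncalled of largest p, and the 4 genes most like Abca1 and Nr1h3 with a mean of at least 5 CPM. Some genes this rule names are not reported here. Of the tested smooth muscle, endothelial and adipocyte markers 5 of 6, 4 of 9 and 1 of 2 were lower, and 0, 1 (Kdr) and 1 (Retn) were higher. Retn was scarce, at 0.0652 ± 0.0377 CPM with DMSO and 0.508 ± 0.138 CPM with 915. Its DMSO level was close to what a count of 0 allows. Replicate numbers were not taken as pairs.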

Additional observations from a re-analysis of the deposited data

How the results depend on the processing

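The 11 alternatives were DESeq2 size factors, library totals without TMM, the DESeq2 test, no filter on low counts, a replicate block and leaving out each library in turn. The number of the 8 genes called higher was 7 in each, except 6 without TMM and 6 without DMSO library 3, where Nr1h2 lost its call; 0 were called lower in any of them or at an unadjusted p under 0.05 in edgeR. Leaving out a library gave 2939 to 3496 higher and 3105 to 3551 lower genes in the whole table. Library totals without TMM shifted the split to 2808 higher and 4285 lower, with 39.6% of calls higher in place of 48.8%. The labels do not say that equal replicate numbers mark a shared cell preparation, so the numbers were not used as pairs. Same-numbered libraries of the groups did not deviate together (correlations of deviations −0.14, −0.40 and −0.25 over 10146 genes). Between differently numbered libraries the correlations ran from −0.12 to 0.33, the highest for DMSO library 3 with 915 library 2. With the replicate block 2996 genes were higher and 3197 lower. Of the 8 genes 7 were then called higher, Nr1h2 at an edgeR adjusted p of 0.0426. The ratios kept their direction with a pseudocount of 1, with the block and without each library. Counting error per library, from the mean count of each group, was 5.13% with 915 and 6.46% with DMSO of the level of Nr1h3, and at most 2.73% for the other 7 genes. Groups of 3 are too small for a test of outlying libraries.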
